A study of Mus musculus with 24 samples.

Results

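The genes described here encode the enzymes that make and break down polyamines and the small proteins that regulate the pathway: Odc1, Amd1, Amd2, Srm and Sms for synthesis, Smox and Sat1 for breakdown, and Oaz1, Oaz2 and Azin1 for regulation. They are 10 of the 55487 genes in the deposited tables, and all 10 were among the 14690 genes tested, each with at least 0.5 TPM (a share of the library corrected for transcript length) in all 24 libraries. They were chosen by the pathway they form and because Amd1 and its near-copy Amd2 were, by their measured TPM, among the largest falls in casted against uncasted muscle, so that contrast is described below for these genes and not tested.

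Poly-adenylated RNA of the gastrocnemius, a calf muscle of mostly fast fibres, was sequenced from 24 male C57BL/6J mice, 1 library per mouse and 8 mice per group. In the first group, both hindlimbs were held in casts and the mice received MOTS-c, a short peptide encoded in the mitochondrial genome, at 15 mg/kg/day for 8 days. In the second group, both hindlimbs were casted and the mice received sterilized water. In the third group, the mice were not casted and received sterilized water. All mice were injected into the peritoneum 2 times a day for 8 days. They were 10 weeks old when assigned to groups, and the sample labels give 12 weeks. No uncasted group with MOTS-c was analysed here, so an effect of the peptide without a cast is not covered.

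Polyamines (putrescine, spermidine and spermine) are small positively charged molecules that bind nucleic acids and are needed for growth and translation. Ornithine decarboxylase, encoded by Odc1, makes putrescine from ornithine. S-adenosylmethionine decarboxylase, encoded by Amd1 and Amd2, makes the aminopropyl donor that spermidine synthase (Srm) and spermine synthase (Sms) add to putrescine and to spermidine. Spermine oxidase (Smox) turns spermine back into spermidine, and spermidine/spermine acetyltransferase (Sat1) marks both for export or oxidation. Antizymes (Oaz1, Oaz2) send ornithine decarboxylase to the proteasome, and the antizyme inhibitor Azin1, a relative of the decarboxylase without its activity, takes antizyme away from it. In skeletal muscle, lower Amd1, Amd2 and Smox transcripts have been described in several forms of atrophy.

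Amd1 and Amd2 need to be read together, because their transcripts are almost the same. In the GENCODE annotation of GRCm38, Amd1 (ENSMUSG00000075232) lies on the minus strand of chromosome 10 from 40287458 to 40302186 and has up to 8 exons in a transcript. Amd2 (ENSMUSG00000063953) lies on the minus strand of the same chromosome from 35708675 to 35711892 and has 1 exon, whose 3218 bases match the whole Amd1 transcript of 3204 bases at 99.6% identity. The coding sequences are 1005 bases each and 1004 of them are identical. The single difference is G796C, with the Amd1 base first, the position counted from 1 at the first base of the start codon, and the Amd2 base last. Positions 766 to 825 of both coding sequences are shown 5′ to 3′, because they hold the only coding base that can tell the genes apart, in capitals.
Amd1: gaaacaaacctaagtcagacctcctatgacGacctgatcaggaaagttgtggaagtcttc
Amd2: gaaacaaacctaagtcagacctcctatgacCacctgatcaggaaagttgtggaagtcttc
Reads that do not cross this base or one of the few differences outside the coding sequence fit both genes equally. The submitters' processing notes name RSEM, which divides such reads between transcripts by an estimate, without its settings, so single values of Amd1 and Amd2 are uncertain, and their sum is given beside them.

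The sequences upstream of these near-copies differ, which is why they are shown too. RefSeq holds promoters for 8 of the 10 genes on GRCm38.p6 (9 promoters in all, 2 of them for Sms), and Srm and Azin1 had no entry. The 250 bases before each start are printed on the gene's own strand, with matches to TATANAA (the TATA box), CCAAT and CACGTG (an E-box) on either strand in capitals. Overlapping matches are joined.
Amd1, chr10:40302189-40302438, minus strand: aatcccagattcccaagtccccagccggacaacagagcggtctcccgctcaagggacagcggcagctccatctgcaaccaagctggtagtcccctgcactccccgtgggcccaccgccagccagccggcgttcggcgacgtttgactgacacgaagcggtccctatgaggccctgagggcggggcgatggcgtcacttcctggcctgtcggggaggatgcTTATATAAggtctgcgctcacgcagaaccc
Amd2, chr10:35711892-35712141, minus strand: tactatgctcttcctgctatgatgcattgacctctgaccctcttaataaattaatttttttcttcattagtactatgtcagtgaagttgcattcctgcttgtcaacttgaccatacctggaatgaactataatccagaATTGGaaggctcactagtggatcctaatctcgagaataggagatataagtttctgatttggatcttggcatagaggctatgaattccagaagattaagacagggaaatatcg
The Amd1 stretch had 64.4% G and C and held TATANAA on both strands in an overlapping match. The Amd2 stretch had 37.6% G and C and held 1 CCAAT on the opposite strand. Of all 32851 promoters in the table, 10.4% held TATANAA, 33.8% held CCAAT and 6.02% held CACGTG. Among the 9 promoters of the pathway, TATANAA was found for Amd1 alone, CCAAT for Amd2, Oaz1 and Sms, and CACGTG for Sms. These are matches of letters in a window and not shown to be bound.

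The other genes lie elsewhere in GRCm38. Odc1 (ENSMUSG00000011179) is on the plus strand of chromosome 12 from 17544794 to 17551505, Srm (ENSMUSG00000006442) on the plus strand of chromosome 4 from 148591503 to 148594993, and Sms (ENSMUSG00000071708) on the minus strand of chromosome X from 157443855 to 157492287. Smox (ENSMUSG00000027333) is on the plus strand of chromosome 2 from 131491496 to 131525922, and Sat1 (ENSMUSG00000025283) on the minus strand of chromosome X from 155213132 to 155216449. Oaz1 (ENSMUSG00000035242) is on the plus strand of chromosome 10 from 80826656 to 80829290, Oaz2 (ENSMUSG00000040652) on the plus strand of chromosome 9 from 65668001 to 65690300, and Azin1 (ENSMUSG00000037458) on the minus strand of chromosome 15 from 38487427 to 38519266. The Odc1 and Azin1 coding sequences were 58.4% identical over their alignment, and those of Oaz1 and Oaz2 53.0%. Pairs as far apart as these do not share reads the way Amd1 and Amd2 can.

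Many of these genes also have processed pseudogenes. With near-copies defined as transcripts at least 90% identical over at least 80% of the copy, Odc1 had 13, Amd1 and Amd2 8 each (counting one another), Sms 7, Srm, Sat1 and Oaz2 2 each, Oaz1 had 1, and Smox and Azin1 had none. Those with a mean of at least 0.5 TPM were Amd-ps3, Oaz1-ps, Oaz2-ps, Sms-ps and the Odc1 copies Gm9115 and Gm7993. Amd-ps3, 99.9% identical to Amd1 over its length, averaged 22.4 TPM as deposited in casted mice with MOTS-c, 18.8 TPM in casted mice and 104.6 TPM in uncasted mice. Its share of the summed TPM of Amd1, Amd2 and itself was 9.17 ± 1.63% in casted mice with MOTS-c, 9.72 ± 1.05% in casted mice and 8.75 ± 0.58% in uncasted mice (SD, n = 8 each), so it kept close to a fixed part of the Amd signal in all groups. Whether it is transcribed itself or receives reads of Amd1 cannot be told apart in these tables. Sms-ps, 100% identical to Sms over its 1101 bases, averaged 11.9 TPM as deposited in casted mice with MOTS-c, 12.4 TPM in casted mice and 12.0 TPM in uncasted mice. Sms itself averaged 67.4, 68.2 and 59.7 TPM in these groups, and its values too depend on how shared reads were divided.

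TPM are shares of a total, and the totals do not show how deeply a library was sequenced, so the depth is unknown. The libraries listed between 19832 and 21755 genes above 0. Values below are TPM after a scaling of the libraries to each other (the trimmed mean of their log ratios), so that a difference of 0 is that of the middle of all genes. On the TPM as deposited, the median gene was 0.39 higher on the log2 scale in casted than in uncasted mice, 0.34 higher in casted mice with MOTS-c than in uncasted mice, and 0.07 lower in casted mice with MOTS-c than in casted mice (a difference of -0.07). The direction of small differences between casted and uncasted groups therefore can depend on the scaling.

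Several casted libraries stood apart from their groups. Across the 861 other genes that differed more than 2-fold in casted against uncasted muscle and passed the test, each library was placed between the uncasted mean (0%) and the casted mean (100%). By the median of these genes, MOTS-c replicate 5 stood at 30.9%, while the other 7 MOTS-c libraries stood between 82.7% and 103%. Among the casted libraries, replicates 1, 2 and 4 stood at 72.0%, 85.7% and 78.2%, replicate 3 at 104%, and replicates 5 to 8 between 109% and 120%. The labels do not say what separates these mice, and results that rest on them are given with and without them.

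Among uncasted mice, Amd1 had the highest level of these genes. Its level ranked 40 of 21961 protein-coding genes, those of the mitochondrial genome left out. The order of mean scaled TPM in uncasted muscle was Amd1 (1335), Oaz1 (488), Smox (399), Oaz2 (147), Odc1 (121), Sms (74.6), Azin1 (29.3), Amd2 (22.4), Sat1 (22.1) and Srm (5.6). The ranges over mice overlapped between Oaz1 and Smox, between Oaz2 and Odc1, and among Azin1, Amd2 and Sat1, and all other neighbours in this order were apart. In casted mice with MOTS-c, the order was Oaz1 (405), Odc1 (243), Amd1 (211), Smox (117), Oaz2 (113), Sms (62.3), Sat1 (28.8), Azin1 (17.6), Srm (10.9) and Amd2 (3.49). The place of Smox before Oaz2 there rests on MOTS-c replicate 5 (484 for Smox), since the median of Smox (63.6) was below that of Oaz2 (113). In casted mice the order of means was Oaz1 (437), Odc1 (254), Amd1 (149), Oaz2 (105), Smox (64.9), Sms (59.9), Sat1 (25.9), Azin1 (21.9), Srm (15.3) and Amd2 (2.68). The ranges of Amd1, Smox and Oaz2 overlapped in both casted groups. In whole muscle, fewer cells of a type and less RNA per cell cannot be told apart.

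**Figure D1:**
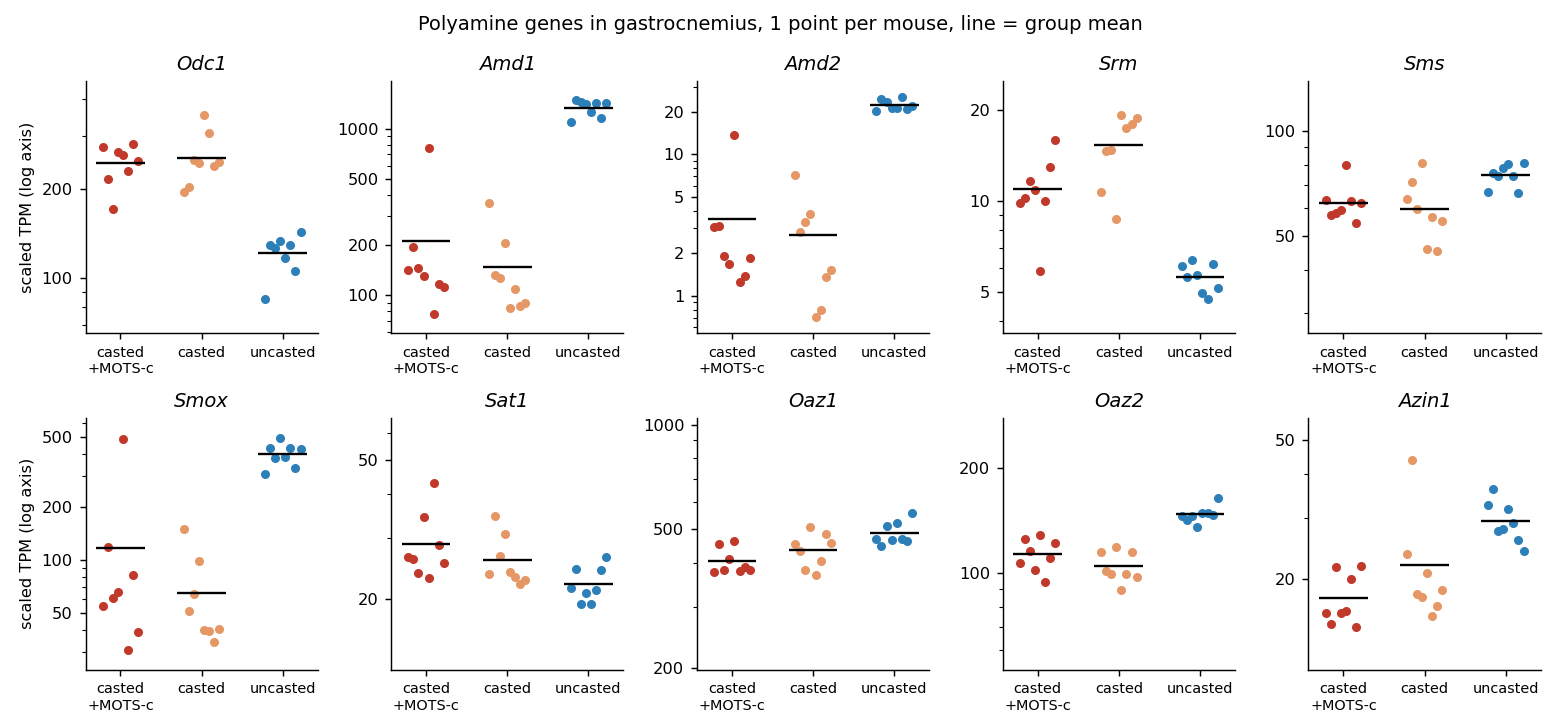
Scaled TPM (log axis, which differs between panels) of the 10 polyamine genes in gastrocnemius, with 1 point per mouse, 8 mice per group and a line at the group mean. Amd1 and Amd2 lie lower in every mouse of both casted groups than in any uncasted mouse, Odc1 lies higher, and the point at 767 for Amd1 is MOTS-c replicate 5.

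The decarboxylases that feed the pathway differed in opposite directions between casted and uncasted mice. Odc1 ranged from 171 to 281 scaled TPM (median 253) in casted mice with MOTS-c, from 195 to 352 (median 244) in casted mice and from 85.4 to 143 (median 128) in uncasted mice. Every mouse of both casted groups was above every uncasted mouse. The log2 difference of casted mice against uncasted mice was 1.05 ± 0.12 (SE, limma).

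Amd1 ranged from 77.0 to 767 scaled TPM (median 137) in casted mice with MOTS-c, from 83.9 to 357 (median 117) in casted mice and from 1102 to 1483 (median 1412) in uncasted mice. No mouse of either casted group reached the uncasted range. The log2 difference of casted mice against uncasted mice was -3.33 ± 0.33 (SE), the 4th largest fall of 14690 genes. Amd2 ranged from 1.25 to 13.6 scaled TPM (median 1.89) in casted mice with MOTS-c, from 0.711 to 7.12 (median 2.17) in casted mice and from 20.2 to 25.4 (median 21.6) in uncasted mice. Again both casted groups were apart from the uncasted one. Its difference for casting was -2.85 ± 0.31, the 8th largest fall, on a scale of log2(scaled TPM + 1) that understates low genes, and Amd-ps3 came between them as the 6th at -3.08 ± 0.34.

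The sum of Amd1 and Amd2, which does not depend on how reads were divided between them, averaged 214 ± 232 scaled TPM in casted mice with MOTS-c, 151 ± 95.1 in casted mice and 1358 ± 144 in uncasted mice (SD, n = 8 each). Without MOTS-c replicate 5, the log2 difference of this sum between casted mice with MOTS-c and uncasted mice was -3.38, against -3.06 with it. Amd2 made up 1.55 ± 0.31% of the sum in casted mice with MOTS-c, 1.65 ± 0.62% in casted mice and 1.66 ± 0.11% in uncasted mice. The share in casted mice with MOTS-c did not differ beyond the spread from that in casted mice (-0.10 percentage points, exact permutation test over 12870 splits, two-sided p = 0.690) or in uncasted mice (-0.10 percentage points, exact permutation p = 0.396). The share was 1.81% to 2.58% in casted replicates 1 to 4 and 0.723% to 1.67% in casted replicates 5 to 8. The mean of 1.55% in casted mice with MOTS-c lay below the first range and within the second.

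The aminopropyl transferases differed from each other. Srm ranged from 5.88 to 15.9 scaled TPM (median 10.6) in casted mice with MOTS-c, from 8.71 to 19.2 (median 16.1) in casted mice and from 4.75 to 6.37 (median 5.65) in uncasted mice. All casted mice were above all uncasted mice, and in casted mice with MOTS-c only replicate 5 fell within the uncasted range. The log2 difference of casted mice against uncasted mice was 1.27 ± 0.15 (SE). Sms ranged from 54.3 to 80.1 scaled TPM (median 60.8) in casted mice with MOTS-c, from 45.2 to 81.0 (median 58.2) in casted mice and from 66.2 to 80.9 (median 74.9) in uncasted mice. The 3 groups overlapped, and the casting difference of -0.33 ± 0.10 turned to 0.18 on the TPM as deposited.

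Ratios of 2 levels within a library do not change with the scaling between libraries. Odc1 over Amd1 had a median of 1.98 (0.338 to 2.97) in casted mice with MOTS-c, 2.35 (0.546 to 4.20) in casted mice and 0.0915 (0.0775 to 0.101) in uncasted mice. Srm over Sms had a median of 0.181 (0.0734 to 0.255) in casted mice with MOTS-c, 0.278 (0.107 to 0.421) in casted mice and 0.0733 (0.0615 to 0.0935) in uncasted mice. The lowest MOTS-c value of both ratios was that of replicate 5.

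In breakdown, the oxidase was lower in casted than in uncasted mice and the acetyltransferase had a small positive difference. Smox ranged from 31.1 to 484 scaled TPM (median 63.6) in casted mice with MOTS-c, from 34.2 to 151 (median 46.0) in casted mice and from 308 to 495 (median 406) in uncasted mice. The casted mice were all below the uncasted ones, and so were 7 of the 8 casted mice with MOTS-c, while replicate 5 lay inside the uncasted range. The log2 difference of casted mice against uncasted mice was -2.78 ± 0.38 (SE), the 10th largest fall of all genes tested. Sat1 ranged from 22.9 to 43.0 scaled TPM (median 26.3) in casted mice with MOTS-c, from 22.1 to 34.5 (median 23.7) in casted mice and from 19.3 to 26.3 (median 21.4) in uncasted mice. Its casting difference was 0.21 ± 0.11, with overlapping groups.

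The regulators of ornithine decarboxylase differed less between groups than Odc1 itself. Oaz1 ranged from 376 to 464 scaled TPM (median 386) in casted mice with MOTS-c, from 370 to 507 (median 445) in casted mice and from 447 to 559 (median 469) in uncasted mice. Oaz2 ranged from 94.0 to 129 scaled TPM (median 113) in casted mice with MOTS-c, from 89.5 to 119 (median 101) in casted mice and from 136 to 165 (median 146) in uncasted mice. Oaz2 was lower in every casted mouse than in any uncasted mouse, while Oaz1 overlapped. Azin1 ranged from 14.5 to 21.8 scaled TPM (median 16.1) in casted mice with MOTS-c, from 15.7 to 43.8 (median 18.3) in casted mice and from 24.1 to 36.3 (median 28.4) in uncasted mice, and the casted value of 43.8 came from replicate 2 alone. The log2 differences of casted against uncasted mice were -0.16 ± 0.07 for Oaz1, -0.50 ± 0.07 for Oaz2 and -0.47 ± 0.15 for Azin1. On the TPM as deposited they were 0.35, 0.02 and 0.02, so the direction of these 3 genes with casting rests on the scaling.

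In casted against uncasted muscle, 9 of the 10 genes passed limma's adjusted threshold of 0.05 (Odc1 and Srm higher, and all others lower except Sat1), beside 56.5% of all genes tested (28.7% higher and 27.7% lower). Groups did not overlap for 6 of the 10 (Odc1, Srm, Amd1, Amd2, Smox and Oaz2), beside 22.4% of all genes. Since this contrast chose the genes, these counts are a description. On the TPM as deposited 8 passed, 5 higher and 3 lower (Amd1, Amd2 and Smox), in place of 2 higher and 7 lower. Of all 14690 genes tested, 10223 passed on that scale, 9132 higher and 1091 lower.

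The comparison of casted mice with MOTS-c against uncasted mice has the MOTS-c libraries in place of the casted ones and shares the uncasted libraries with the contrast that chose the genes. Its p-values are therefore not from independent values, and none is given for Amd1 and Amd2, which led to the choice. Amd1, Amd2 and Smox were lower, and Odc1 and Srm were higher. All 10 genes passed the adjusted threshold, 3 higher and 7 lower, beside 50.7% of all genes tested (26.0% higher and 24.7% lower). This count includes Amd1 and Amd2, so it is a description. Amd1 was lower by 3.06 on the log2 scale (a difference of -3.06 ± 0.33, SE, limma), and Amd2 had a difference of -2.69 ± 0.31. Smox had a difference of -2.33 ± 0.38 (limma adjusted p = 1.92e-05). Leaving out MOTS-c replicate 5 gave -3.38 for Amd1, -2.98 for Amd2 and -2.71 for Smox.

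Odc1 was higher in casted mice with MOTS-c than in uncasted mice, with a log2 difference of 0.99 ± 0.12 (SE, limma adjusted p = 3.42e-07). Srm had a difference of 0.82 ± 0.15 (adjusted p = 7.18e-05). Sat1 had a difference of 0.34 ± 0.11 (adjusted p = 0.0123), and these 3 genes were higher on the TPM as deposited too. The regulators were lower on the scaled values. Azin1 had a difference of -0.71 ± 0.15 (adjusted p = 0.000288), Oaz2 of -0.38 ± 0.07 (adjusted p = 4.2e-05) and Oaz1 of -0.27 ± 0.07 (adjusted p = 0.00227). Sms had a difference of -0.26 ± 0.10 (adjusted p = 0.0275), which lost its call without MOTS-c replicate 7 (-0.24, adjusted p = 0.0568) and with no filter on low values (adjusted p = 0.0543). On the TPM as deposited, 7 genes passed, 4 higher (Odc1, Srm, Sat1 and Oaz1) and 3 lower (Amd1, Amd2 and Smox). Of all 14690 genes tested, 9827 passed on that scale, 8808 higher and 1019 lower. There Oaz1 turned to 0.17 (adjusted p = 0.0379), Sms to 0.17 (adjusted p = 0.0518) and Oaz2 to 0.05 (adjusted p = 0.566), and Azin1 was at -0.29 (adjusted p = 0.114). Groups did not overlap for Odc1, Amd1, Amd2, Oaz2 and Azin1, 5 of the 10, beside 15.4% of all genes. That count is a description too.

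**Figure D2:**
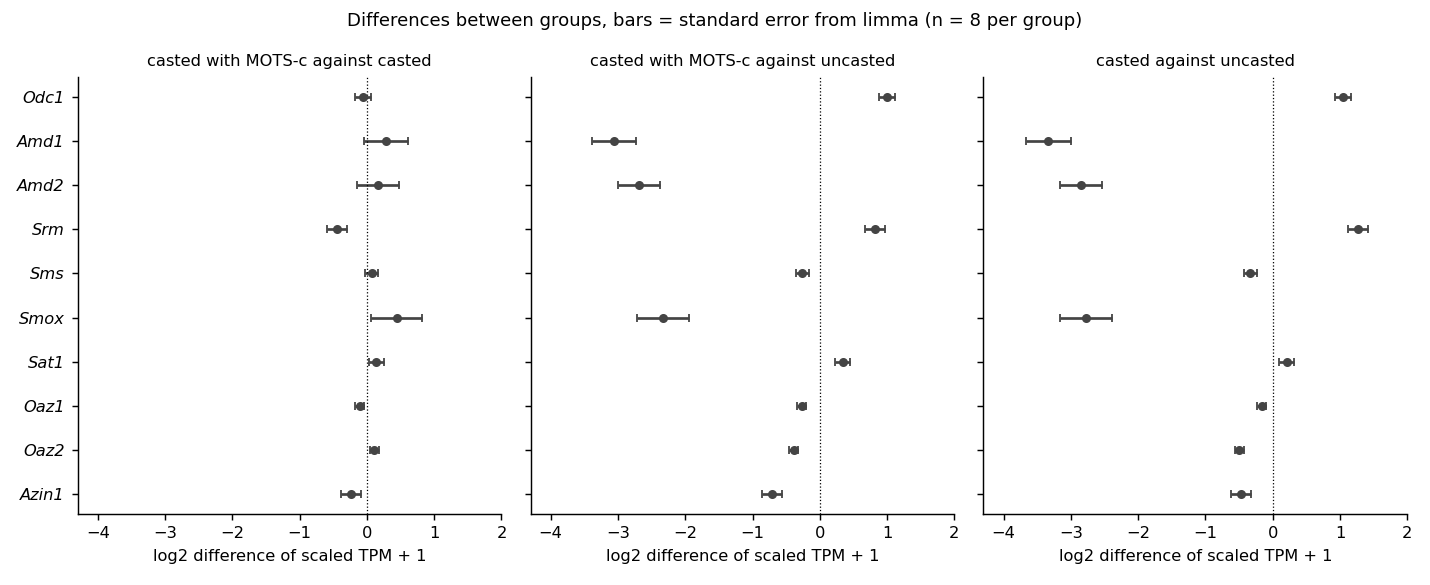
Log2 differences of scaled TPM + 1 between groups for the 10 genes, with bars of 1 standard error from limma (8 mice per group). Casted mice with MOTS-c against uncasted mice (middle) and casted mice against uncasted mice (right) share their uncasted mice and both show Amd1, Amd2 and Smox far to the left, with Odc1 and Srm to the right of 0, while in casted mice with MOTS-c against casted mice (left) no difference is beyond 0.45 in size.

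The comparison of casted mice with MOTS-c against casted mice asks what the peptide changed in casted muscle, and it shares the casted libraries, with opposite sign, with the contrast that chose the genes. None of the 10 genes passed limma's adjusted threshold, beside 0.0204% of all genes tested, that is 3 genes of 14690 (0.0136% higher and 0.00681% lower), while 1986 genes had an unadjusted p under 0.05. Of the 10, only Srm had an unadjusted p under 0.05. The groups overlapped for all 10, and did not for 0.0749% of all genes. Srm had a log2 difference of -0.45 (95% interval -0.76 to -0.14, unadjusted p = 0.00615, limma adjusted p = 0.228). Amd1 had a difference of 0.28 (95% interval -0.40 to 0.95, adjusted p = 0.738), and Smox of 0.44 (-0.34 to 1.23, adjusted p = 0.626). Both were close to 0 without MOTS-c replicate 5, at -0.05 for Amd1 and 0.07 for Smox. With each library left out in turn, the differences ranged from -0.05 to 0.48 for Amd1 and from 0.07 to 0.64 for Smox. Odc1 had a difference of -0.06 (-0.30 to 0.19, adjusted p = 0.866) and Amd2 of 0.17 (-0.48 to 0.81, adjusted p = 0.847). The fit used 1 spread for all 3 groups. The log2 SD in casted mice with MOTS-c, casted mice and uncasted mice was 0.99, 0.72 and 0.16 for Amd1. For Amd2 it was 0.88, 0.78 and 0.11, and for Smox 1.21, 0.74 and 0.22. The uncasted mice, which are not compared here, thus narrowed the intervals of Amd1, Amd2 and Smox. Over all genes, a fit of only the 2 groups compared called 0 of 14318. The intervals were narrower for the antizymes, at -0.25 to 0.04 for Oaz1 (difference -0.11, adjusted p = 0.503) and -0.03 to 0.25 for Oaz2 (difference 0.11, adjusted p = 0.477). Sms (0.07, adjusted p = 0.775), Sat1 (0.14, adjusted p = 0.606) and Azin1 (-0.24, adjusted p = 0.483) did not pass either.

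The replicates 1 to 4 and 5 to 8 of the casted group differed in these genes, and this split was taken with the difference between them already known, so the values by split are a description with no test. Casted replicates 1 to 4 averaged 205 ± 108 scaled TPM of Amd1, 4.26 ± 1.94 of Amd2, 91.2 ± 44.5 of Smox, 12.2 ± 2.99 of Srm and 69.0 ± 9.38 of Sms, and casted replicates 5 to 8 averaged 92.1 ± 11.3, 1.10 ± 0.41, 38.6 ± 2.96, 18.4 ± 0.80 and 50.8 ± 6.16 (SD, n = 4 each). The casted mice with MOTS-c, at 10.9 for Srm and 62.3 for Sms, averaged below both sets for Srm and between them for Sms. The log2 difference of casted mice with MOTS-c was -0.74 for Srm and 0.29 for Sms against replicates 5 to 8, and -0.16 and -0.15 against replicates 1 to 4. With casted replicate 1 and MOTS-c replicate 5 both left out, none passed either, and Amd1 was at 0.16 and Smox at 0.27.

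**Figure D3:**
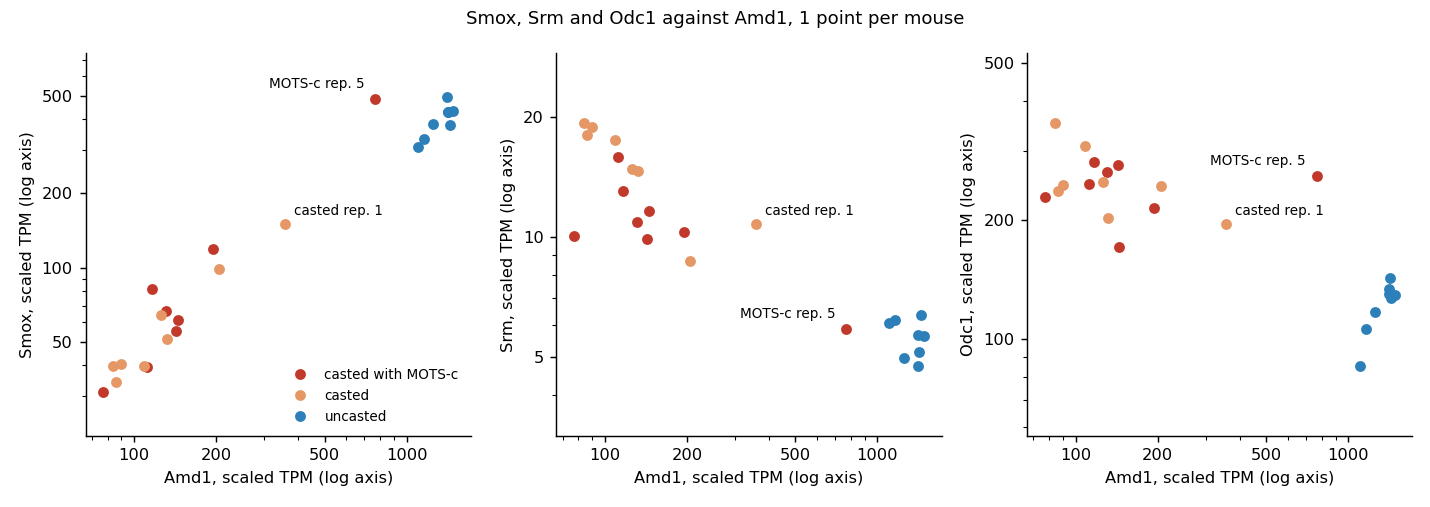
Scaled TPM of Smox, Srm and Odc1 against that of Amd1 (log axes), 1 point per mouse, coloured by group. MOTS-c replicate 5, at 767 for Amd1, lies near the uncasted mice for Smox (484) and Srm (5.88) but among the casted mice for Odc1, and casted replicate 1 has the highest Amd1 (357) and Smox (151) of the casted mice.

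MOTS-c replicate 5 was not intermediate for every gene of the pathway. On the scale from the uncasted mean to the casted mean, it stood at 5.22% for Srm and -10.6% for Smox, inside the uncasted range of both genes. It stood at 23.7% for Amd1 and 23.5% for Amd2, between the groups, since its 767 and 13.6 scaled TPM were below every uncasted mouse and above every other casted mouse. For Odc1 it stood at 105% and for Azin1 at 173%, at or beyond the casted mean. Its summed level of 10 muscle fibre markers was 100404 scaled TPM, the highest of the casted groups and below all uncasted mice. The part of fibre content or of the cast itself in this library's values was not tested.

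Within groups, mice with more Amd1 tended to have more Smox, less clearly so without the libraries farthest from the median of Amd1. Of 27 relations of Amd1 with the other genes (9 genes in 3 groups of 8, log2 scale, exact permutation over all pairings, p adjusted over the 27), 8 had an adjusted p under 0.05 for Pearson's r. With Smox, r was 0.964 in casted mice with MOTS-c (exact p = 0.00124, adjusted p = 0.00904), with rho = 0.786 (exact p = 0.0279, adjusted p = 0.108). In casted mice r with Smox was 0.975 (exact p = 0.000719, adjusted p = 0.00904), with rho = 0.857 (exact p = 0.0107, adjusted p = 0.0482). In uncasted mice it was 0.847 (exact p = 0.00766, adjusted p = 0.0296), with rho = 0.571 (exact p = 0.151, adjusted p = 0.291). Without the 2 libraries farthest from the median of Amd1, r with Smox was 0.711, 0.822 and 0.366 in these 3 groups (exact p = 0.117, 0.0403 and 0.436), none with an adjusted p under 0.05.

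Srm ran the other way in casted mice, with r = -0.874 (exact p = 0.00945, adjusted p = 0.0319) and rho = -0.952 (exact p = 0.00114, adjusted p = 0.0308). Without replicates 1 and 4 its r was -0.950 (exact p = 0.00694, adjusted p = 0.112). Odc1 followed Amd1 in uncasted mice by r = 0.914 (exact p = 0.00236, adjusted p = 0.0127) but not by rho = 0.619 (exact p = 0.115, adjusted p = 0.259), and without replicates 1 and 7 its r was 0.626 (exact p = 0.250). Oaz1 in casted mice with MOTS-c had r = 0.805 (exact p = 0.00665, adjusted p = 0.0296) and rho = 0.643 (exact p = 0.0962, adjusted p = 0.236), and r = 0.734 without replicates 5 and 6 (exact p = 0.0986). Amd2, which can share reads with Amd1, had r = 0.973 in casted mice with MOTS-c (exact p = 0.000843, adjusted p = 0.00904) and 0.903 in casted mice (exact p = 0.00134, adjusted p = 0.00904), with rho = 0.905 in both (exact p = 0.00456, adjusted p = 0.0308), and r = 0.766 and 0.749 with the farthest 2 left out. Sms in casted mice passed by rho alone (rho = 0.905, exact p = 0.00456, adjusted p = 0.0308), with r = 0.676 (exact p = 0.0653, adjusted p = 0.141). With 2 libraries left out, 6 remained in each group and none of the 27 had an adjusted p under 0.05. Without them r was closer to 0 for Smox in all 3 groups, Odc1 in uncasted mice, Oaz1 in casted mice with MOTS-c and Amd2 in both casted groups, while in casted mice it was farther from 0 for Srm (-0.950) and for Sms (0.904, exact p = 0.00833, adjusted p = 0.112). In casted mice, replicates 1 to 4 all had more Amd1 than replicates 5 to 8, so the relations there run along that split.

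The genes whose pattern over the 24 libraries was most like that of Amd1 were taken by the root mean square difference of log2 values centred on the uncasted mean, out of 12601 genes without near-copies of Amd1. They were Mettl21c (0.40), which encodes a lysine methyltransferase, AC122818.4 (0.55), Smox (0.57), Ostn (0.62), which encodes the muscle peptide osteocrin, Nrep (0.64) and 2310065F04Rik (0.72). Mettl21c averaged 25.8 scaled TPM in casted mice with MOTS-c, 12.5 in casted mice and 133 in uncasted mice, and reached 102.7 in MOTS-c replicate 5. This ordering is a description, since all of these genes had large falls with casting and share the libraries that stood apart. Among the polyamine genes, Amd2 had a distance of 0.42 to Amd1, and those other than Amd2 and Smox had distances between 2.26 (Azin1) and 3.59 (Srm).

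The neighbouring steps of metabolism were covered by lists of 49 other genes, of which 37 were tested. In casted against uncasted mice, 12 were higher, 11 were lower and 14 did not pass, with a median difference of 0.08 beside 0.01 for all genes, and with 56.5% of all genes passing. On the TPM as deposited the split was 26 higher and 2 lower (Gamt and Mat2a), so the calls of the other 9 falls rest on the scaling. Of all 14690 genes tested, 10223 passed on that scale, 9132 higher and 1091 lower. Aoc3, Enoph1, Oat, Nos3 and Mat2b turned positive there, as did Adi1, Mtap, Mtr, Dohh, Atp13a2 and Slc18b1, which had not passed, and Apip (-0.20, adjusted p = 0.0555), Gatm, Slc25a15 and Slc7a2 stayed below 0 without passing. With casted replicates 1 to 4 alone 18 passed, beside 5910 of all 14408 genes tested. With replicates 5 to 8 alone 22 passed, beside 8203 of all 14400 genes tested.

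Of the 9 tested genes for other polyamine enzymes and carriers, 3 were higher and 1 lower in casted than in uncasted mice. Atp13a3, a pump that moves polyamines out of endosomes into the cell, averaged 42.5 ± 12.8 scaled TPM in casted mice and 16.9 ± 3.59 in uncasted mice (SD, n = 8 each), a log2 difference of 1.26 ± 0.19 (SE, limma adjusted p = 3.66e-06). All 8 casted mice were above all uncasted mice. Sat2, a relative of Sat1, was higher by 0.48 ± 0.11 (adjusted p = 0.000877), and Slc3a2, a subunit of amino acid exchangers, by 0.36 ± 0.08 (adjusted p = 0.000676). Aoc3, a vessel-associated amine oxidase, had a difference of -0.38 ± 0.10 (adjusted p = 0.00147), which was 0.01 on the TPM as deposited. Paox, the oxidase that acts on acetylated polyamines, had a difference of 0.22 ± 0.10 (adjusted p = 0.0657), and Azin2 of 0.10 ± 0.10 (adjusted p = 0.432), and both passed as higher on the TPM as deposited.

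Supply and recycling of S-adenosylmethionine, the substrate of the Amd enzymes, had 14 tested genes, 3 higher and 5 lower. Mat2a, the catalytic subunit of S-adenosylmethionine synthetase in muscle, averaged 82.7 ± 16.3 scaled TPM in casted mice and 162 ± 21.4 in uncasted mice, a log2 difference of -0.97 ± 0.14 (SE, limma adjusted p = 3.02e-06) with no overlap between groups. Gamt, which spends S-adenosylmethionine to make creatine, averaged 2.72 ± 1.73 scaled TPM in casted mice and 12.7 ± 2.34 in uncasted mice, a difference of -1.99 ± 0.26 (adjusted p = 6.66e-07). Of the salvage enzymes that recycle methylthioadenosine, the by-product of the Srm and Sms steps, Apip had a difference of -0.69 ± 0.08 (adjusted p = 1.85e-07) and Enoph1 of -0.39 ± 0.06 (adjusted p = 1.29e-05, but 0.06 on the TPM as deposited), Mri1 was higher by 0.49 ± 0.13 (adjusted p = 0.00185), and Mtap, the first of them, had -0.09 ± 0.11 (adjusted p = 0.466) but passed as higher on the TPM as deposited (0.38, adjusted p = 0.0146). Ahcy, which clears S-adenosylhomocysteine, was higher by 0.89 ± 0.13 (adjusted p = 1.59e-06).

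In arginine and ornithine supply, 4 of 10 tested genes were higher and 5 lower. Asl, which makes arginine, averaged 22.9 ± 5.08 scaled TPM in casted mice and 6.97 ± 0.89 in uncasted mice, a log2 difference of 1.56 ± 0.15 (SE, limma adjusted p = 7.87e-09), and Ass1, the step before it, was higher by 0.37 ± 0.12 (adjusted p = 0.0101). The arginine transporters were unlike, with Slc7a1 higher by 0.36 ± 0.11 (adjusted p = 0.00920) and Slc7a2 at -0.50 ± 0.14 (adjusted p = 0.00302), which was -0.01 on the TPM as deposited. Oat, which exchanges ornithine with glutamate semialdehyde, had a difference of -0.41 ± 0.09 (adjusted p = 0.000767) that turned to 0.11 on the TPM as deposited, and Gatm, which uses arginine for creatine, of -0.52 ± 0.10 (adjusted p = 0.000139). Of the 4 genes for hypusination of eIF5A, the modification that consumes spermidine, Dhps was higher by 0.75 ± 0.09 (adjusted p = 3.51e-07) and Eif5a by 0.52 ± 0.08 (adjusted p = 7.76e-06), while Eif5a2 (0.06, adjusted p = 0.595) and Dohh (-0.12, adjusted p = 0.203) did not pass, although both did as higher on the TPM as deposited.

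**Figure D4:**
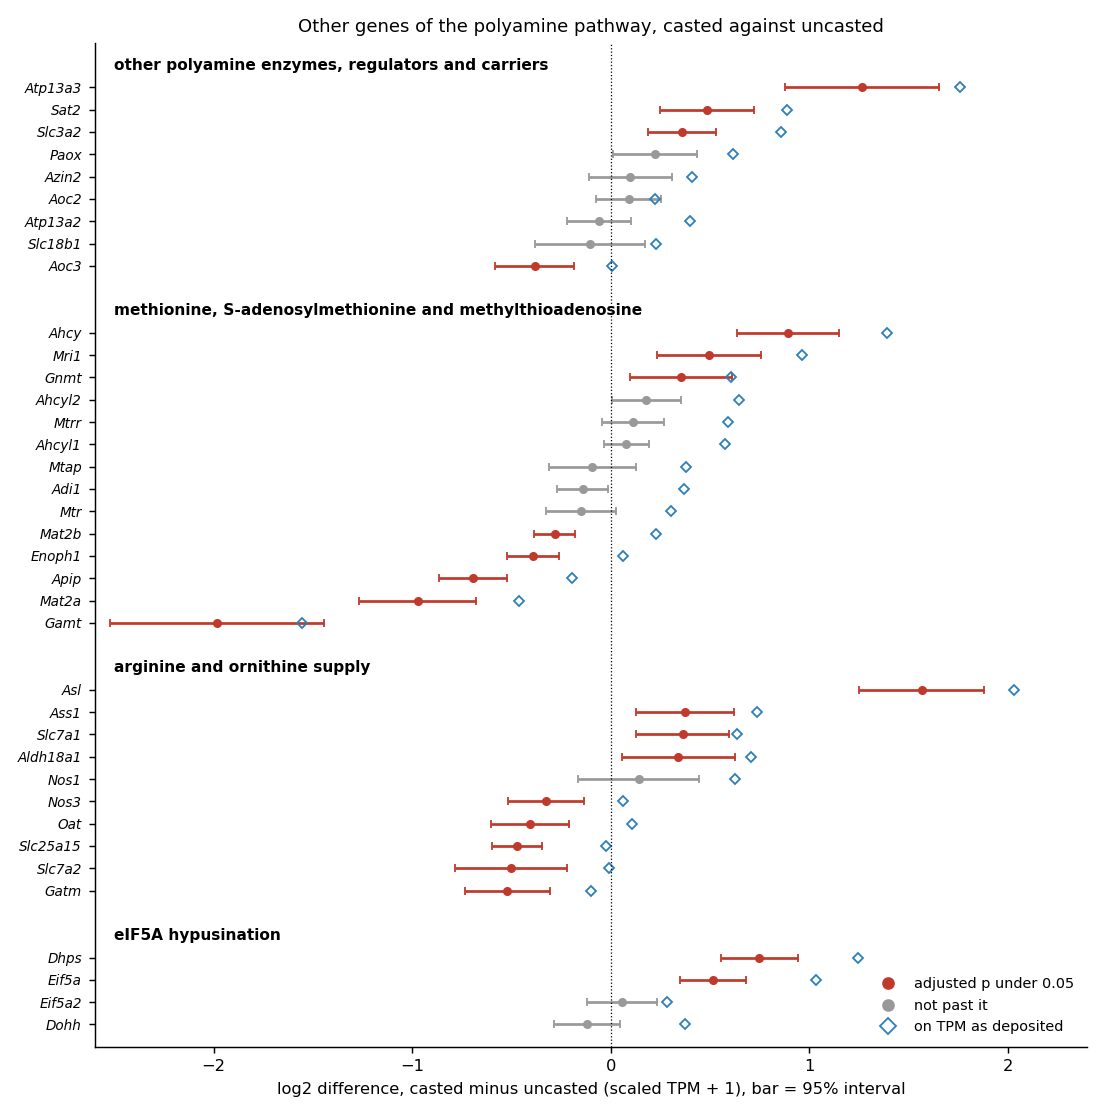
Log2 differences of casted against uncasted mice for the 37 tested pathway genes outside the 10, with 95% intervals from limma (8 mice per group), red where the adjusted p is under 0.05 and grey where it is not, and open diamonds for the same difference on the TPM as deposited. Asl (1.56) and Atp13a3 (1.26) lie farthest to the right and Gamt (-1.99) and Mat2a (-0.97) farthest to the left, and all diamonds lie to the right of the scaled values.

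In casted mice with MOTS-c against casted mice, none of these 37 genes passed limma's adjusted threshold, beside 0.0204% of all genes, and the smallest unadjusted p was that of Gatm (log2 difference 0.38 ± 0.10, SE, unadjusted p = 0.00120, adjusted p = 0.162). The count by casted replicates 1 to 4 and 5 to 8, a split taken with their difference known, was 0 and 7 and is not a test. Over all genes tested, 2 of 14408 passed with replicates 1 to 4 and 1539 of 14400 with replicates 5 to 8.

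The muscle held other cells whose markers moved between the same groups. Of 12 macrophage markers, 12 were higher in casted mice with MOTS-c and 9 in casted mice, each against uncasted mice, and their summed level ranged from 152 to 375 scaled TPM in casted mice with MOTS-c, from 120 to 294 in casted mice and from 95.9 to 131 in uncasted mice. Of 10 muscle fibre markers, 8 were lower and 2 (Des and Myh1) higher in each casted group against uncasted mice on the scaled values, and on the TPM as deposited 3 were lower in casted mice with MOTS-c and 6 in casted mice. The fibre markers summed to between 58840 and 100404 scaled TPM in casted mice with MOTS-c, between 55153 and 84468 in casted mice and between 117535 and 134736 in uncasted mice, so the tissue was muscle in every library. Of 7 neutrophil and lymphocyte markers, S100a8 and S100a9 were higher in both casted groups, and the other 5 were too low to test, with Ly6g at 0 in all 8 casted mice with MOTS-c. Of 8 endothelial markers, Cldn5 was higher in both casted groups, and 6 were lower in casted mice with MOTS-c and 7 in casted mice, but on the TPM as deposited 2 were higher in each and 1 was lower in casted mice with MOTS-c and 2 in casted mice. Pecam1 passed as lower in casted mice (-0.21) and as higher on the TPM as deposited (0.29). Of 6 adipocyte markers, 3 were higher and 1 lower in casted mice with MOTS-c and 1 was lower in casted mice, but on the TPM as deposited 5 and 4 were higher and none lower. Of 7 markers of fibro-adipogenic progenitors, 2 were lower in casted mice with MOTS-c and 4 in casted mice, but on the TPM as deposited 3 were higher in each, and 0 and 3 were lower. Of 5 Schwann cell markers, 0 passed in casted mice with MOTS-c and 3 were lower in casted mice, but on the TPM as deposited 2 were higher in casted mice with MOTS-c and 1 was lower in casted mice. Neither of the 2 satellite cell markers tested passed, and 1 was higher in both casted groups on the TPM as deposited. The part of these cells in the differences of the polyamine genes was not tested.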

How the data were processed

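Per the labels' protocols, RNA was extracted from frozen gastrocnemius in TRIzol, purified with a Quick-RNA kit and made into libraries from poly-adenylated RNA. The sources used here do not state strandedness. The submitters' processing notes name FastQC, STAR, RSEM, DESeq2 and the build GRCm38.p6, without versions. The deposited values are TPM, 1 table of 55487 genes per library. Each column has a fixed total, so depth is unknown and no counting interval can be given. Symbols, matched for 55227 identifiers, and coordinates (1-based) come from GENCODE release M21.

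From the TPM, scaling factors were computed as an unweighted trimmed mean of log ratios (30% of ratios and 5% of levels trimmed at each end). Genes with at least 0.5 TPM in at least 8 libraries were tested with limma 3.58.1 (R 4.3.3) on log2(scaled TPM + 1), with a mean-variance trend and 3 group means, two-sided. P-values were adjusted by Benjamini-Hochberg over all tested genes, with a threshold of 0.05. The model was tested on simulated data. Single measures were compared by exact permutation tests (Python 3.11.15, numpy 2.4.6), and near-copies were found with blastn 2.17.0. The text names all 10 polyamine genes, at least the 2 largest differences past the threshold per pathway list, near-copies with a mean of at least 0.5 TPM, and the 6 genes most like Amd1. Alternatives were other scalings, a pseudocount of 0.1, no filter, a replicate block and a fit of only the 2 groups compared. Others were casted replicates 1 to 4 or 5 to 8 alone and leaving out each library. The genes and lists were chosen with earlier results of these data known. Samples within a group are separate mice according to the design text.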

Additional observations from a re-analysis of the deposited data

Results flagged for a closer look

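In 9 of 36 groups of 8 values, 1 library lay farther from its nearest neighbour than Dixon's 95% criterion allows, as the gap over the range of the group. Chance gives about 1 in 20 for independent values with a normal distribution. The criterion was applied to scaled TPM and not to the log2 values that limma used. High values stand farther out without the log, so the count of 9 cannot be set against that share. MOTS-c replicate 5 was far above the other casted mice with MOTS-c for Amd1 (767 scaled TPM), Amd2 (13.6), the sum of both (781), Smox (484) and Sms (80.1). Casted replicate 1 was far above the other casted mice for Amd1 (357) and for the sum of Amd1 and Amd2 (364). Casted replicate 2 stood above its group for Azin1 (43.8). Uncasted replicate 8 stood above its group for Oaz2 (165). The values for Amd1, Amd2 and their sum are not separate observations, since the transcripts are near-copies. What distinguishes these mice is not given in the labels and was not tested.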

How the results depend on the processing

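On the TPM as deposited, differences against uncasted mice turned to 0.17 (casted with MOTS-c) and 0.18 (casted) for Sms, 0.17 and 0.35 for Oaz1, and 0.0504 and 0.0175 for Oaz2, and to 0.0246 (casted) for Azin1, which follows the shift of the median gene between these scales. The split of casted replicates 1 to 4 and 5 to 8 was taken with their difference known, so its values are a description. With casted replicates 5 to 8 alone, casted mice with MOTS-c against casted mice gave 2 polyamine genes and 7 other pathway genes past the threshold in place of none. Of all 14400 genes tested in that setting, 1539 passed in this comparison. With casted replicates 1 to 4 alone the Amd2 share differed by -0.556 percentage points in that comparison. In casted against uncasted mice the share differed by 0.452 points with replicates 1 to 4 and by -0.458 with 5 to 8, which include the low Amd2 values of replicates 5 and 6. The cause was not tested. Of the relations with Amd1, 8 passed the threshold with all libraries and 0 without the 2 libraries farthest from its median, although in casted mice r was then farther from 0 for Srm (-0.950) and Sms (0.904). Leaving out 1 library at a time gave 9 to 10 polyamine genes called in casted mice with MOTS-c against uncasted mice, 0 in casted mice with MOTS-c against casted mice and 8 to 9 in casted against uncasted mice, and 22 to 26 other pathway genes in the last of these. Of all 14607 to 14658 genes tested, 7028 to 7712 passed in the first of these comparisons and 7867 to 8363 in the last. Leaving out casted replicate 1 together with MOTS-c replicate 5, chosen after seeing the data, gave 10 and 0 polyamine genes in the first 2 comparisons. Of all 14566 genes tested there, 7766 and 13 passed. The labels do not say whether equal replicate numbers link mice across groups. Deviations of same-numbered libraries correlated between -0.245 and 0.371. Differently numbered libraries were not set beside them, so these values cannot decide it. With the replicate block, 10, 0 and 8 polyamine genes passed in the 3 comparisons in the order above (Oaz1 lost in casted against uncasted mice) and 24 other pathway genes in casted against uncasted mice. Of all 14690 genes tested, 7481, 18 and 8375 passed with the block. Over all genes, casted mice with MOTS-c against casted mice gave 3 calls, and 0 with a pseudocount of 0.1, 0 with no filter, 8 on the TPM as deposited, 18 with the replicate block, 1539 with casted replicates 5 to 8 alone, 13 without both of those libraries, and 0 to 63 with 1 library left out (63 without casted replicate 1).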
